A study of Rattus norvegicus with 12 samples.

Results

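Obese Zucker rats were compared with lean ones in kidney, as the mean of the difference on a control diet and the difference on rosiglitazone. All 12 of the 12 arrays of the series entered this comparison, 6 from lean and 6 from obese rats, with 1 Affymetrix expression array of total kidney RNA per rat. The rats were male. Lean control and obese control rats ate ground chow, and lean rosiglitazone and obese rosiglitazone rats had rosiglitazone mixed into it at 3 mg per kg, with 3 rats in each of the 4 groups and 12 weeks on the diet. The sources used here state neither age, litter nor which Lepr alleles the lean rats carried, and p-values measure the spread between these rats. The labels call the animals a model for diabetes.

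The obese Zucker rat carries a mutated Lepr, the receptor through which the fat hormone leptin lowers food intake, and it becomes obese, insulin resistant and later proteinuric. Rosiglitazone is a thiazolidinedione that activates the nuclear receptor PPARgamma, which drives adipocyte genes and raises insulin sensitivity. In the kidney, the proximal tubule reabsorbs most of the filtered glucose, phosphate, amino acids and protein and secretes organic ions, while the distal nephron sets the final sodium and water content of the urine under aldosterone and vasopressin. Whole kidney RNA mixes these segments with vessels, leukocytes and the fat around the hilum, so fewer cells of a type and less RNA per cell cannot be told apart.

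Signals are the linear values deposited by the authors, with a median per array of 204 to 239. The 3 bacterial control probe sets that should find no target (TrpnX) read at most 59.6, and signals at or under this value were treated as background. The first principal component, with 29.6% of the variance, placed the lean arrays between -26 and -11.5 and the obese arrays between 16.9 and 26. One further feature moved with body type: the signal of the cre hybridization control was 14324 to 15629 on 5 arrays, 4 lean and 1 obese, and 10354 to 11745 on the other 7, of which 2 were lean (lean control 3 and lean rosiglitazone 3) and 5 obese. Because this higher and lower spike-in class overlaps with body type, values with the class in the model and values within the lower class (2 lean against 5 obese arrays) are given for the results named as changed by them below. Markers of kidney were present on all 12 arrays: Umod, the uromodulin gene of the thick ascending limb, read 16369 to 23092, and the collecting duct water channel Aqp2 9919.5 to 13229.8.

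Of 18625 probe sets tested, 2665 (14.3%) passed an adjusted p under 0.05 in the mean of both diets, with 1432 higher and 1233 lower in obese rats (limma with Benjamini-Hochberg adjustment). At least a 2-fold change was reached by 172, of which 92 were higher and 80 lower. The difference within a single diet passed for 882 probe sets (4.74%) on control and for 932 (5%) on rosiglitazone. These single-diet counts rest on 3 against 3 arrays and moved with 1 array: the control count was 385 without lean control 1, 545 without lean control 2, 546 without obese control 1, 325 without obese control 2 and 331 without obese control 3, and the rosiglitazone count was 531 without lean rosiglitazone 1, 486 without obese rosiglitazone 1, 474 without obese rosiglitazone 2 and 518 without obese rosiglitazone 3. With the spike-in class in the model, 2000 probe sets passed in the mean of both diets, 1677 of them among the 2665 with the same sign, and within the lower class 889 passed, 746 of them shared.

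The 2665 were chosen by the mean of both diets on these same arrays, which itself favours one sign in both diets and separate groups, so the following counts describe them and test nothing. Among the 2665 called probe sets, 2656 had the same sign on control and on rosiglitazone, and 1603 (60.2%) had every obese array on the same side of every lean array within each diet, 857 of them higher and 746 lower, and 9.95% of all tested probe sets, called or not, had such groups. The median size of the change was 0.44 on control and 0.45 on rosiglitazone (log2). Only 435 of the 2665 passed in each diet alone, 411 passed on control only, 466 on rosiglitazone only and 1353 in neither diet alone. The diets share no arrays, so each could be looked up in the other: with each diet fitted alone, 752 of 782 probe sets called on control (96.2%) had the same sign on rosiglitazone and 291 (37.2%) were called there, and 617 of 631 called on rosiglitazone (97.8%) had the same sign on control and 291 (46.1%) were called there. The same sign was found for 68.6% of all tested probe sets. Across probe sets, which are not independent replicates, the change on control and on rosiglitazone correlated with Pearson r = 0.61 and Spearman rho = 0.53 over 18625 probe sets. The spike-in class overlapped with body type in both diets, more so on rosiglitazone. Its higher class held lean control 1, lean control 2 and obese control 1 on control. On rosiglitazone it held lean rosiglitazone 1 and lean rosiglitazone 2 and no obese array. No probe set passed the test of a difference between the diets (limma, 0%), although 802 had an unadjusted p under 0.05, 190 of them among the 2665. Without lean control 2, that test called 4 probe sets.

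**Figure D1:**
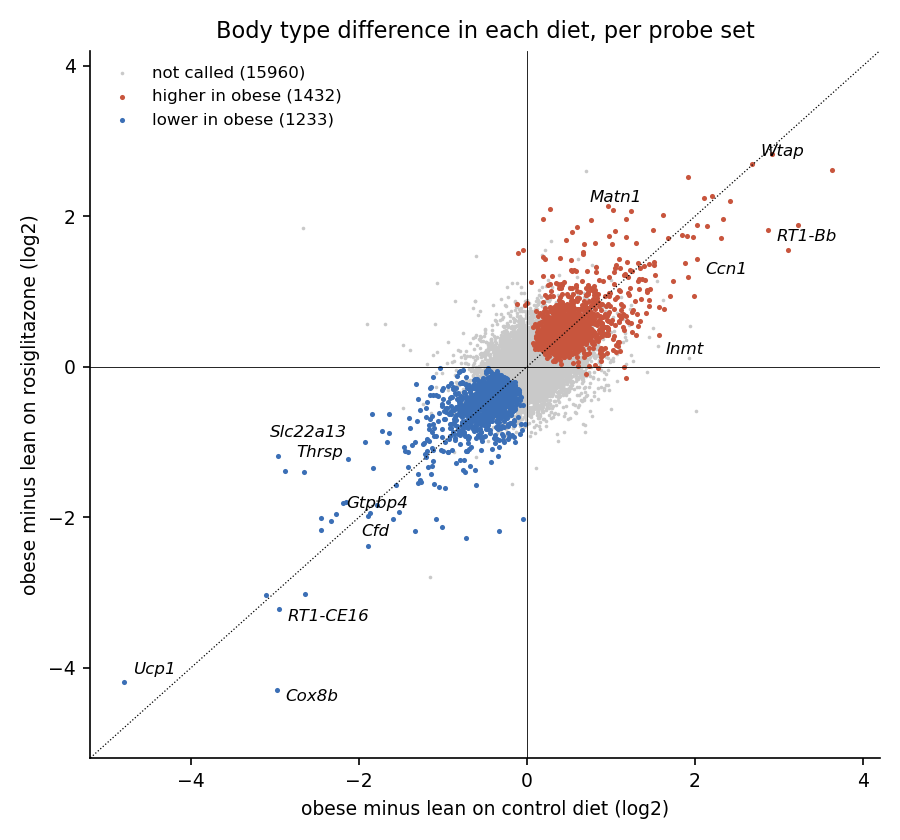
Obese minus lean difference of each tested probe set on control diet (horizontal axis, log2) against rosiglitazone (vertical axis, log2). Grey points are probe sets not called, red points the 1432 called higher and blue points the 1233 called lower in the mean of both diets, which lie around the dotted line of equal change from Ucp1 at the lower left to Wtap at the upper right.

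Among called genes with no overlap of lean and obese arrays within either diet, the largest shared rises were those of Wtap, a subunit of the RNA methyltransferase complex, RT1-Bb, the beta chain of an MHC class II molecule, Havcr1, the injury marker KIM-1 of the proximal tubule, and Ubd, a ubiquitin-like protein induced by cytokines. Wtap read 562, 566 and 516 in lean control, 637, 542 and 467 in lean rosiglitazone, 3761, 3827 and 3207 in obese control and 3524, 3749.9 and 3603 in obese rosiglitazone rats. The 2 body types thus lay far apart on both diets, and the mean rise was 2.69 (SE 0.08, adjusted p = 1.37e-10). A second probe set of Wtap rose by 0.36 (adjusted p = 0.0217), so the 2 probe sets differed in the size of the change. RT1-Bb read 466, 577 and 117 in lean control, 479, 483 and 267 in lean rosiglitazone, 2385, 2897 and 2095 in obese control and 1539, 1454 and 1333 in obese rosiglitazone, a mean rise of 2.34 (SE 0.30, adjusted p = 0.000351). RT1 genes form a polymorphic family of close copies, so which copy or allele a probe set reads is uncertain. Havcr1 was at 96.6 to 214 in lean control and 36.1 to 145 in lean rosiglitazone rats, against 2592, 277 and 679 in obese control and 233, 325 and 852 in obese rosiglitazone rats. No obese array overlapped with a lean one of the same diet, but the obese values spanned a wide range (826 ± 900 (SD, n = 6)), and the rise was 2.15 (SE 0.50, adjusted p = 0.0124), with 1.73 (adjusted p = 0.0625) within the lower class.

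Ubd rose by 2.01 (SE 0.32, adjusted p = 0.00154), from 151 to 688 over the 6 lean arrays to 674 to 2444 over the 6 obese ones. Its lean values were highest on the 2 lower-class lean arrays, at 688 and 381, and within the lower class the rise was 0.86 (adjusted p = 0.00558). Ccn1, a matricellular protein of injured tubules also named Cyr61, read 99.9, 123 and 90.5 in lean control, 92.5, 87.1 and 81.4 in lean rosiglitazone, 663, 486 and 325 in obese control and 277, 231 and 283 in obese rosiglitazone rats. All 6 obese arrays were above the 6 lean ones, with a mean rise of 1.73 (SE 0.16, adjusted p = 1.57e-05). Adh1c, an alcohol dehydrogenase that also oxidizes retinol, went from 387 to 773 in lean to 1699.9 to 2642 in obese rats, a rise of 1.69 (SE 0.13, adjusted p = 3.61e-06) that was 1.68 on control and 1.71 on rosiglitazone. The other 8 of the 14 largest rises were Lypd2 (1.85), the cartilage matrix gene Matn1 (1.66), the pentraxin Apcs (1.46), the acute phase gene Serpina3n (1.45), the Wnt antagonist Sfrp2 (1.44), the malic enzyme Me2 (1.43), RT1-CE5, an MHC class I gene (1.41), and the transcription factor Tfap2a (1.37). Their adjusted p lay between 2.77e-06 for RT1-CE5 and 0.00649 for Tfap2a.

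Among genes with no such overlap, the largest shared falls were led by genes of brown fat. Ucp1, the uncoupling protein by which brown adipocytes make heat, read 803, 632 and 894 in lean control and 2357, 5435 and 1535 in lean rosiglitazone rats, but 32.8, 6.87 and 4.11 in obese control and 79.1, 132 and 219.8 in obese rosiglitazone rats. Lean and obese values stood apart on both diets, and the mean change was -4.49 (SE 0.32, adjusted p = 3.61e-06). Cox8b, a cytochrome c oxidase subunit of brown fat and muscle, read 387, 169 and 593 in lean control and 1028, 2179 and 1079.6 in lean rosiglitazone rats, and 31.2, 32.0 and 24.7 in obese control and 31.6, 49.3 and 90.8 in obese rosiglitazone rats, a change of -3.64 (SE 0.29, adjusted p = 4.67e-06). Since obese control arrays of both genes were at background, the size of these changes depends on the offset added before the logarithm: at an offset of 1 they were -5.23 and -4.08, and at an offset of 64 they were -3.61 and -2.85. RT1-CE16, an MHC class I gene of the same uncertain family, read 1394, 1541 and 753 in lean control, 1446, 1629.9 and 1406 in lean rosiglitazone, 176, 102 and 145 in obese control and 201, 96.7 and 155 in obese rosiglitazone rats, a change of -3.09 (SE 0.20, adjusted p = 5.68e-07).

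Gtpbp4, a GTPase of ribosome assembly, changed by -2.12 (SE 0.09, adjusted p = 9.5e-09), from 9202 to 13833 in lean to 2095 to 3232 in obese rats, and its second probe set changed by -3.07. Slc22a13, an organic anion and urate carrier of the tubule, read 875, 724 and 584 in lean control and 109, 76.3 and 55.9 in obese control rats, and 899.7, 1172 and 659.7 in lean and 354, 459.9 and 335 in obese rats on rosiglitazone. Both diets showed the fall without overlap, with a mean change of -2.08 (SE 0.17, adjusted p = 3.68e-06). Thrsp, a regulator of fatty acid synthesis, changed by -2.02 (SE 0.28, adjusted p = 0.000597), and its 2 other probe sets by -2.13 and -1.68. Cfd, the adipose complement factor adipsin, read 295, 176 and 499.9 in lean control, 427, 484 and 401 in lean rosiglitazone, 48.6, 62.1 and 108 in obese control and 93.4, 85.6 and 128 in obese rosiglitazone rats, a change of -1.91 (SE 0.23, adjusted p = 0.000118). The remaining 7 of the 14 largest falls were AKR1C3l1, an aldo-keto reductase (-1.94), Pik3r1, the regulatory subunit of phosphoinositide 3-kinase (-1.81), F2, prothrombin (-1.73), the peroxisomal membrane gene Pxmp4 (-1.59), the keratin Krt19 (-1.57), the lipid droplet gene Cidea (-1.55) and Pamr1 (-1.47). Pik3r1 signals were 537 to 921 in the 6 lean and 100 to 256 in the 6 obese rats.

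**Figure D2:**
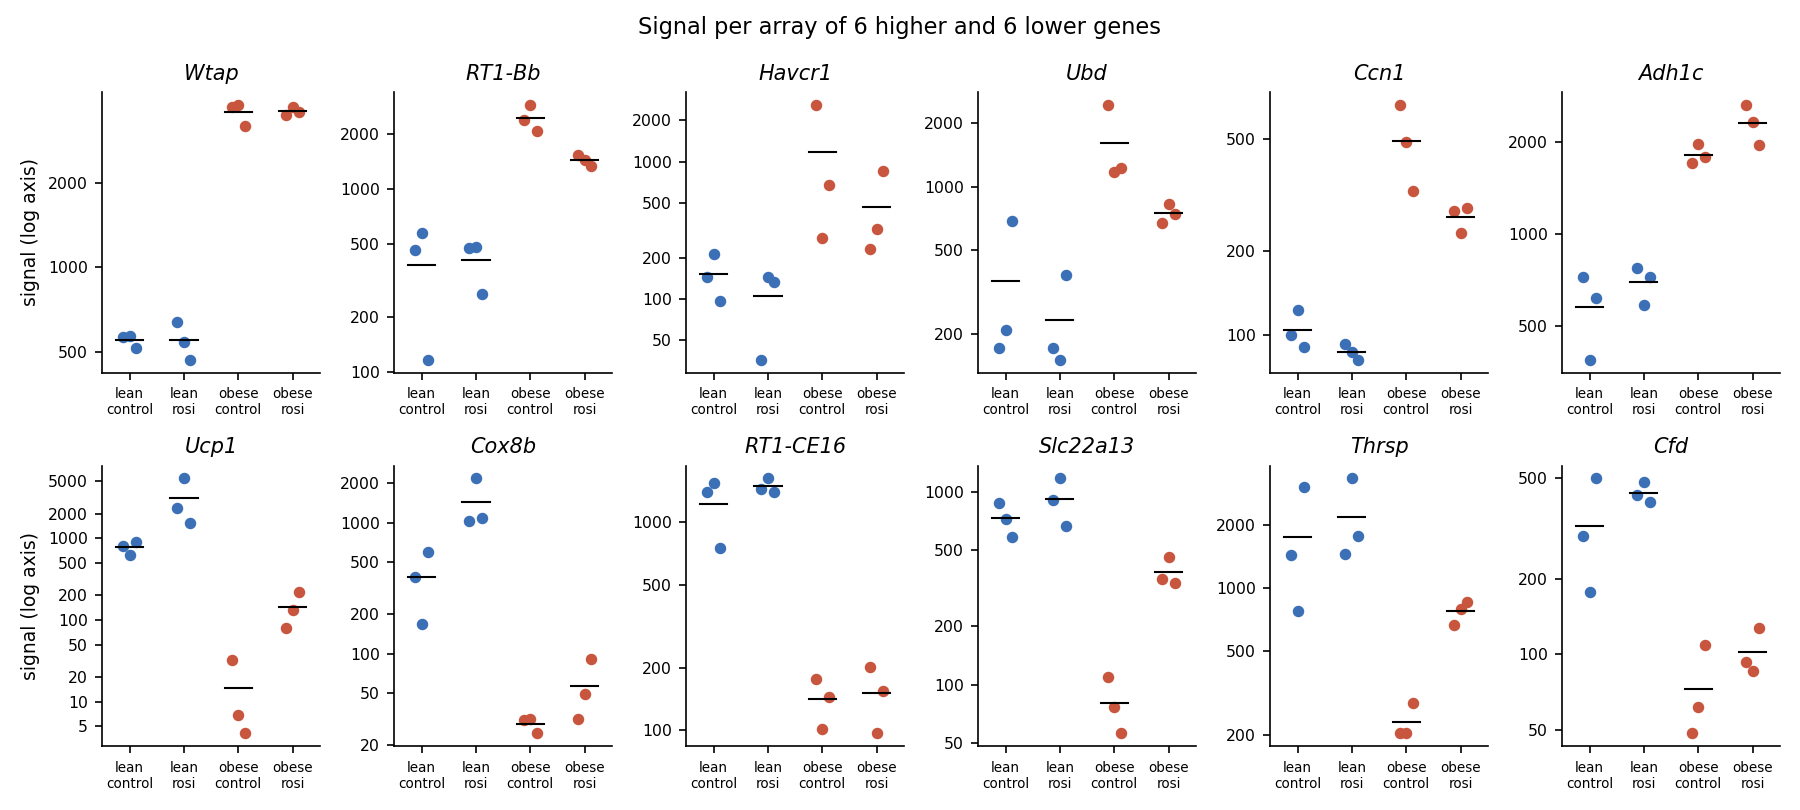
Signal of each array on a log axis for 6 genes higher and 6 genes lower in obese rats, with blue points for lean and red points for obese arrays and a black line for the mean of the 3 arrays of a group. In every panel the obese points lie on one side of the lean points within each diet, for example 3207 to 3827 against 467 to 637 for Wtap.

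Where a called gene had further probe sets on the array, these mostly had the same sign. Of 449 called genes with several tested probe sets, 337 had all of one sign, 150 had another called in the same direction and 11 had another called in the opposite direction. Of the 28 genes of largest change, 6 had others, all of the same sign, and 5 had at least 1 other called.

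In gene lists of kidney segments, cell types and pathways, each gene was represented by its tested probe set of highest mean, and 10524 genes were tested, of which 905 (8.60%) were called higher and 813 (7.73%) lower. The median change over all genes was 0.03. Among lists with at least 5 tested genes, the largest shares called lower were those of adipocyte and proximal tubule markers, and the largest share called higher that of distal nephron transport genes. Lists and members were chosen with earlier results of these data known. The shares and their order therefore describe the lists and test nothing.

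**Figure D3:**
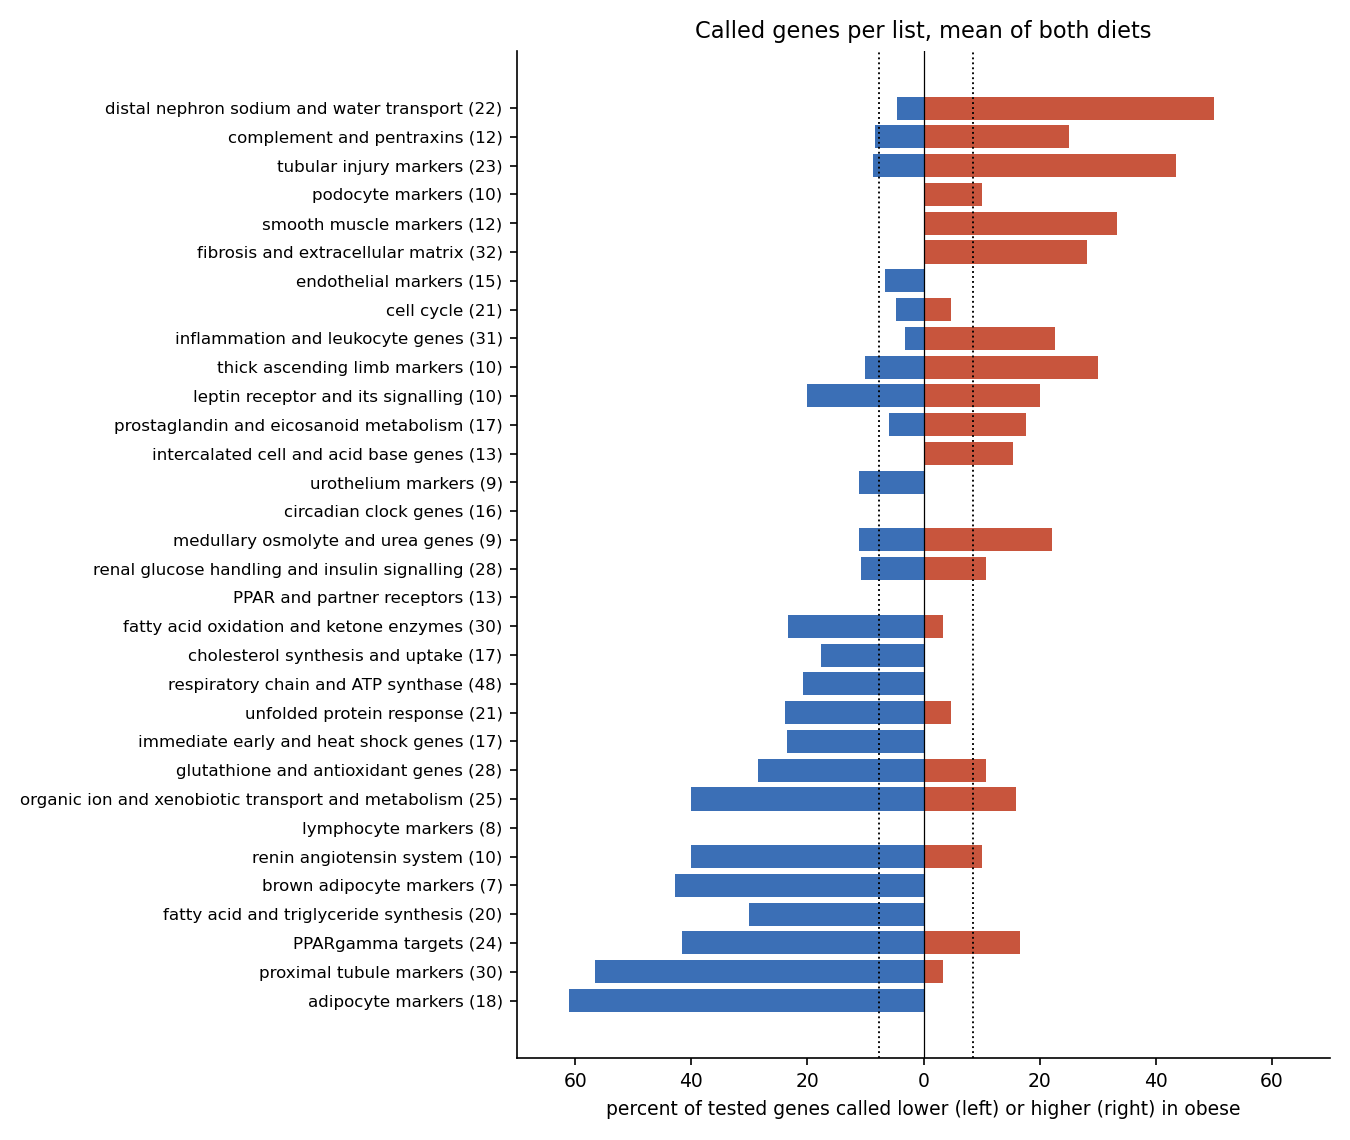
Percent of the tested genes of each list called lower (blue, to the left) or higher (red, to the right) in obese rats in the mean of both diets, with the number of tested genes in parentheses and lists ordered by their median change. Dotted lines mark the share over all genes, 7.73% lower and 8.60% higher. Of the 22 distal nephron transport genes 11 were called higher, and of the 30 proximal tubule markers 17 were called lower.

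Proximal tubule markers were lower in obese rats. Of 30 tested markers, 17 (56.7%) fell and 1 rose, and the median change was -0.38 (-0.32 on control and -0.43 on rosiglitazone). Called or not, 11 of the 30 had every obese array below every lean array within each diet. Such separate groups, in either direction, were found for 9.95% of all tested probe sets. Besides Slc22a13, the largest falls were those of Slc22a7, the organic anion transporter OAT2, and Slc13a3, the dicarboxylate transporter of the basolateral membrane. Slc22a7 read 1276, 1506 and 1141 in lean control, 1349.9, 1044 and 1052 in lean rosiglitazone, 516, 463 and 416 in obese control and 493, 487 and 574 in obese rosiglitazone rats, a change of -1.29 (SE 0.10, adjusted p = 2.77e-06). Obese values were thus well below lean ones whatever the diet. Slc13a3 went from 5766 to 7295 in lean to 2696 to 4519 in obese rats (-0.89, SE 0.09, adjusted p = 2.52e-05). Brush border and uptake genes fell less in proportion: Anpep, aminopeptidase N, by 0.70 on the log2 scale (adjusted p = 8.58e-06), Amn, the partner of cubilin in protein reabsorption, by 0.66 (adjusted p = 1.52e-05), and the water channel Aqp1 by 0.45 (adjusted p = 0.000791). Among called members named here after their values were seen, the endocytic receptors Cubn (-0.49) and Lrp2 (-0.37), the cation carrier Slc22a2 (-0.55), the anion carrier Slc22a6 (-0.46) and the phosphate carrier Slc34a1 (-0.38) also fell, although a second probe set of Slc34a1 had the opposite sign.

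Slc5a2, the glucose carrier SGLT2 of the early proximal tubule, was the single member that rose (2.56, SE 0.74, adjusted p = 0.0414), and its values followed the spike-in class in lean rats. It read 36.5, 54.0, 57.6 and 53.8 on the 4 higher-class lean arrays, all at background, and 502 and 667 on the 2 lower-class lean arrays, against 165 to 1704 on the obese arrays. With the class in the model the change was 1.35 (adjusted p = 0.1). Among lower-class arrays it was 0.54 (adjusted p = 0.675), and the call was also lost in 9 of 12 fits that each left out 1 array, namely each array but lean control 3, lean rosiglitazone 3 and obese rosiglitazone 1, with an adjusted p of up to 0.106. Slc5a1, the related carrier SGLT1, changed by -0.50 (adjusted p = 0.0257), a call lost without lean control 1, obese control 2, obese control 3, lean rosiglitazone 1 or obese rosiglitazone 1 (adjusted p up to 0.0699), and with the class in the model (-0.33, adjusted p = 0.152). For the whole list, the median was -0.24 within the lower class, where 11 markers passed, -0.29 with 14 lower when the class was in the model, and -0.14 after quantile normalization. The summed signal of the list was 170607 to 210644 in lean control, 176926 to 209668 in lean rosiglitazone, 143259 to 161266 in obese control and 145073 to 148150 in obese rosiglitazone rats.

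Genes of sodium and water transport in the distal nephron moved the other way. Of 22 tested, 11 (50%) rose and 1 fell, and the median change was 0.40 (0.43 on control and 0.34 on rosiglitazone). Called or not, 7 of the 22 had every obese array above every lean array within each diet, and 1 had every obese array below. Sgk1, the kinase by which aldosterone and insulin keep the sodium channel at the membrane, read 4584, 3305 and 3722 in lean control, 3774, 3301 and 2547 in lean rosiglitazone, 5563, 4976 and 4728 in obese control and 7117, 6505 and 6302 in obese rosiglitazone rats. Its obese values were above the lean values on both diets and rose by 0.73 (SE 0.10, adjusted p = 0.000324). Aqp3, the basolateral water channel of the collecting duct, went from 2421 to 3639 in lean to 3761 to 5942 in obese rats (0.71, SE 0.12, adjusted p = 0.00213). Nr3c2, the mineralocorticoid receptor, read 866 to 1030.0 in lean and 1171 to 1562 in obese rats (0.46, SE 0.08, adjusted p = 0.00158), and Wnk1, a kinase that governs the thiazide-sensitive cotransporter, rose by 0.46 (adjusted p = 0.00271), with 1 of its 2 other probe sets also called.

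Further called members, named here after their values were seen, were the sodium channel subunits Scnn1a (0.42) and Scnn1b (0.46), the thiazide-sensitive cotransporter Slc12a3 (0.62), the vasopressin receptor Avpr2 (0.39), the water channel Aqp4 (0.62) and Hsd11b2, which protects the mineralocorticoid receptor from glucocorticoid (0.36). Slc12a3 was at 4156 and 3312 on the lower-class lean arrays and 2334 to 3223 on the other lean arrays, and within the lower class it differed by 0.32 (adjusted p = 0.102). Not all of the segment moved: the channel subunit Scnn1g differed by 0.33 (adjusted p = 0.139) and Aqp2 by 0.06 (adjusted p = 0.661). The list's median was 0.31 within the lower class, where 3 members rose, 0.35 with 9 rises when the class was in the model, and 0.43 after quantile normalization. Atp1b1, the beta subunit of the sodium pump, which all tubule segments use, was the member that fell (-0.29, adjusted p = 0.00271).

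**Figure D4:**
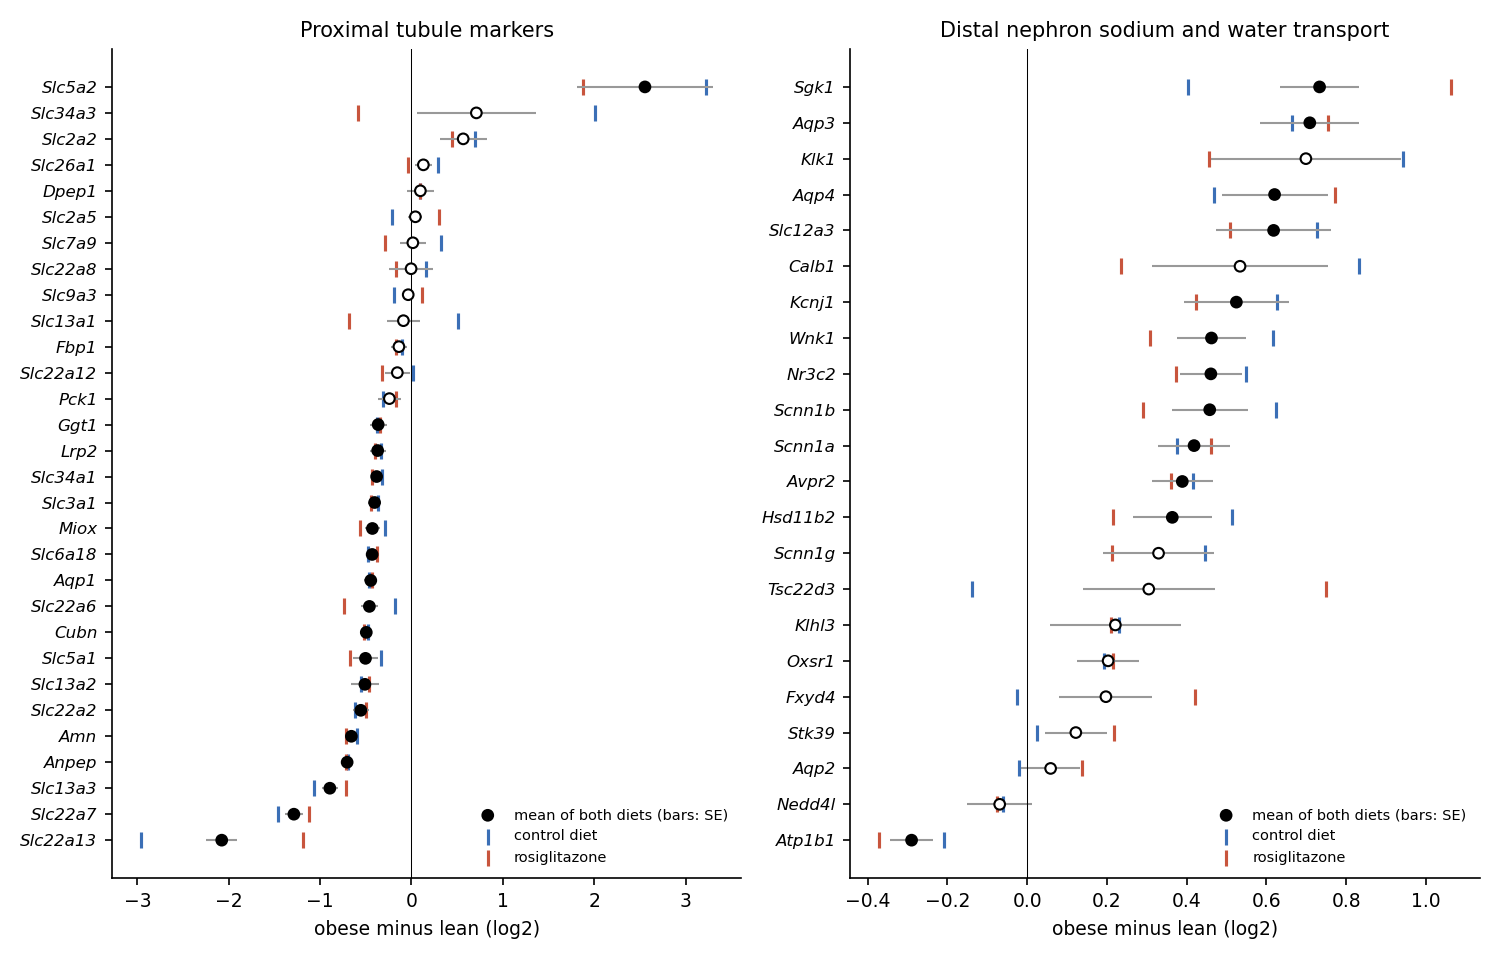
Obese minus lean difference (log2) of each tested proximal tubule marker (left) and distal nephron transport gene (right). Circles show the mean of both diets with its SE, filled where called and open where not, and blue and red ticks show control diet and rosiglitazone. Of the 30 proximal markers 17 are called below 0, and of the 22 distal genes 11 above 0.

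Other segments changed less. In the thick ascending limb, 3 of 10 tested markers rose and 1 fell (median 0.16): the potassium channel Kcnj1 rose by 0.52 (adjusted p = 0.0168), which became 0.37 (adjusted p = 0.0919) with the class in the model. The call of Slc12a1 (0.23, adjusted p = 0.0496) was lost in 10 of 12 fits that each left out 1 array. Umod changed by -0.27 (adjusted p = 0.0171) but by 0.08 (adjusted p = 0.113) after quantile normalization, so its direction depends on the scaling. Among medullary osmolyte and urea genes, 2 of 9 rose and 1 fell, and the urea transporter Slc14a2 went from 745 to 1242 in lean to 1063 to 1930.4 in obese rats (0.61, SE 0.14, adjusted p = 0.0112), while its 3 other probe sets had the same sign and were not called. Of intercalated cell genes 2 of 13 rose (median 0.09), and the call of Rhcg (0.30, adjusted p = 0.0318) was lost in 8 of those 12 fits. Podocyte markers had 1 of 10 called higher (median 0.33), Wt1 (0.59, adjusted p = 0.0341), a call lost in 8 of the 12 fits. The slit diaphragm gene Nphs1 differed by 0.66 (adjusted p = 0.148). Endothelial markers had 1 of 15 called, which fell (median 0.20), with Pecam1 at 0.02 (adjusted p = 0.937).

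Adipocyte markers had the largest share of called genes among the lists with at least 5 tested genes. Of 18 tested, 11 (61.1%) fell and 0 rose (limma, with 14 lower and 0 higher at an unadjusted p under 0.05), all 18 had one sign in both diets, and the median was -0.65 (-0.48 on control and -0.68 on rosiglitazone). Ucp1, Cox8b, Thrsp, Cfd and Cidea, given above, lead this list and mark brown fat or lipogenic adipocytes. Aqp7, the glycerol channel of adipocytes, is also a protein of the proximal tubule brush border, and it read 4337, 4089 and 4086 in lean control, 4839, 4694 and 3945 in lean rosiglitazone, 2962, 2786 and 2470.1 in obese control and 2287, 2927 and 2901 in obese rosiglitazone rats (-0.67, SE 0.08, adjusted p = 0.000112). Adipoq, the fat hormone adiponectin, was 588.6 to 1110 in lean and 409.8 to 643.5 in obese rats, with overlap on the control diet (-0.51, adjusted p = 0.0164), and -0.49 (adjusted p = 0.0557) with the class in the model. The fatty acid carrier Fabp4 (-1.24, adjusted p = 0.00725, and 0.0821 within the lower class) and the lipid droplet coat Plin1 (-1.09, adjusted p = 0.00142) also fell, both named after their values were seen. Pparg itself differed by 0.05 (adjusted p = 0.88), with 149 to 258 in obese and 166 to 317 in lean rats.

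The summed signal of the adipocyte list was 14908 to 20419 in lean control against 9678 to 10676 in obese control rats, and 24572 to 40984 in lean against 14264 to 14990 in obese rosiglitazone rats. The body types did not overlap on either diet. Of the 7 tested brown adipocyte markers 3 fell, Ucp1, Cox8b and Cidea, all of which are also on the adipocyte list, whereas Ppargc1a, a coactivator that tubule cells use as well, differed by 0.01 (adjusted p = 0.95). Changes above 0 were found for 3 of the 7, up to 0.29, and 0 were called higher. In 1 of the 7 every obese array was above every lean array within each diet. Whether the amount of attached fat differed between the kidneys was not tested. Within the lower class the adipocyte median was -0.59, with 9 falls.

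PPARgamma targets and fat synthesis genes were lower as well, in part through shared members. Of 24 tested PPARgamma targets 10 (41.7%) fell and 4 rose (median -0.29), and 7 of the 10 that fell are adipocyte markers. In the 14 targets outside that list, 3 fell and 4 rose. Gpd1, which makes the glycerol backbone of triglyceride, went from 2916 to 4407 in lean to 1991 to 2655 in obese rats (-0.59, SE 0.09, adjusted p = 0.000951). In the opposite direction, and named here after their values were seen, Lpl, which frees fatty acids from lipoproteins, rose by 0.73 (adjusted p = 0.00248) and the uncoupling protein Ucp2 by 0.56 (adjusted p = 0.00161). Of 13 PPAR and partner receptor genes 0 passed the test (limma, with 1 at an unadjusted p under 0.05).

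In fatty acid and triglyceride synthesis, 6 of 20 genes fell and 0 rose (limma, with 10 lower and 0 higher at an unadjusted p under 0.05), with a median of -0.28. Pnpla3, a lipase of lipid droplets under SREBP control, changed by -0.75 (adjusted p = 0.000691), the malic enzyme Me1 by -0.49 (adjusted p = 0.00115) and the elongase Elovl5 by -0.41 (adjusted p = 0.00164). A second probe set of Elovl5 differed by -0.07 (adjusted p = 0.76), with 0.19 on control and -0.33 on rosiglitazone. Me1 read 2604, 2110.0 and 2169.7 in lean control, 2903, 2808 and 2338 in lean rosiglitazone, 1729, 1546 and 1568 in obese control and 1752, 1896 and 2103 in obese rosiglitazone rats, so that the groups did not overlap. Fasn, the synthase itself, had opposite signs in the diets: it differed by -1.69 on control and 0.57 on rosiglitazone, and by -0.56 in the mean (adjusted p = 0.0671), and the difference between the diets did not pass (adjusted p = 0.235). Fatty acid oxidation genes had 7 of 30 lower and 1 higher. Their median of -0.10 was -0.01 on control and -0.25 on rosiglitazone, so the list as a whole was near 0 on control. The genes that fell included the acyl-CoA dehydrogenases Acadm (-0.43, adjusted p = 0.000944) and Acadl (-0.35, adjusted p = 0.00149, with -0.17 on control and -0.53 on rosiglitazone) and the peroxisomal enzyme Ehhadh (-0.48, adjusted p = 0.00413). Cpt1a, the gate of mitochondrial uptake, differed by 0.07 (adjusted p = 0.52). In cholesterol synthesis and uptake 3 of 17 fell, led by Insig1, the sterol sensor that holds back SREBP (-0.49, adjusted p = 0.0077). The calls of Fdft1 (-0.21, adjusted p = 0.0455) and Lss (-0.52, adjusted p = 0.0478) were each lost in 10 of 12 fits that left out 1 array. A second probe set of Fdft1 changed by -0.34 (adjusted p = 0.00959).

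Tubular injury markers rose. Of 23 tested, 10 (43.5%) rose and 2 fell, with a median of 0.33, which was 0.27 within the lower class and 0.34 after quantile normalization. Called or not, 8 of the 23 had every obese array above every lean array within each diet, and 2 had every obese array below. Besides Havcr1, Spp1, the secreted matrix protein osteopontin, read 6237, 8369.8 and 6218 in lean control, 8143, 7344 and 6342 in lean rosiglitazone, 18108, 10268 and 12739 in obese control and 9141, 11788 and 13001 in obese rosiglitazone rats (0.79, SE 0.14, adjusted p = 0.00216). All 6 obese arrays were above all 6 lean ones. Timp1, the inhibitor of matrix metalloproteinases, went from 27.0 to 237 in lean to 273 to 377 in obese rats (1.22, SE 0.28, adjusted p = 0.0111), and the actin-binding gene Tagln2 rose by 0.41 (adjusted p = 0.000591). The 2 members that fell were Tff3, a trefoil peptide of the tubule that is also secreted into urine, from 22418 to 28138 in lean to 13984 to 17979.8 in obese rats (-0.66, SE 0.08, adjusted p = 9.25e-05), and Krt19, a keratin of collecting duct and urothelium, from 1117 to 1769.8 to 362 to 602 (-1.57, SE 0.16, adjusted p = 4.7e-05). Krt19 is also on the urothelium list, where it was the 1 of 9 genes called.

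Fibrosis and matrix genes were higher in smaller number. Of 32 tested, 9 (28.1%) rose and 0 fell (limma, with 17 higher and 0 lower at an unadjusted p under 0.05), with 2 of the rises, Ccn1 and Timp1, free of overlap in both diets. The median was 0.25 and 0.23 within the lower class. Ccn2, connective tissue growth factor, was called in the mean (0.42, adjusted p = 0.00751) with 0.84 on rosiglitazone and 0.00 on control, and the difference between the diets did not pass (adjusted p = 0.459). Acta2, the actin of smooth muscle and myofibroblasts, rose by 0.41 (adjusted p = 0.0108) and by 0.35 (adjusted p = 0.0555) with the class in the model. The collagens Col1a1 and Col3a1 each differed by 0.41, with adjusted p of 0.1 and 0.159. In the smooth muscle list, 4 of 12 rose (median 0.31), the tropomyosin Tpm2 from 289 to 425 in lean to 458 to 624 in obese rats (0.54, SE 0.10, adjusted p = 0.00289). The call of Myl9 (0.29, adjusted p = 0.0407) was lost in 9 of 12 fits that each left out 1 array.

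Inflammation and leukocyte genes had 7 of 31 (22.6%) higher and 1 lower, with a median of 0.19 that was 0.09 within the lower class. Icam1, the adhesion molecule that holds leukocytes on endothelium and injured tubules, read 368, 341 and 233 in lean control, 370.2, 155 and 104 in lean rosiglitazone, 568, 787 and 576 in obese control and 696, 510.1 and 606 in obese rosiglitazone rats (1.32, SE 0.23, adjusted p = 0.0024). Obese arrays were above lean arrays on both diets. The MHC class II chains rose: besides RT1-Bb, and named after their values were seen, RT1-Db1 rose by 0.89 (adjusted p = 0.00591) and RT1-Ba by 0.68 (adjusted p = 0.0164). Cd74, the invariant chain of these molecules, changed by -0.37 (adjusted p = 0.00366), from 4863 to 6364 in lean to 3738 to 5284 in obese rats. Several leukocyte genes did not pass, with Ptprc, the pan-leukocyte CD45, at 0.22 (adjusted p = 0.332), the macrophage gene Cd68 at -0.07 (adjusted p = 0.814) and 0 of 8 lymphocyte markers called (limma, with 2 of them at an unadjusted p under 0.05). The median of the lymphocyte markers was -0.21, with 0.03 on control, -0.36 on rosiglitazone and -0.48 within the lower class. Complement and pentraxin genes had 3 of 12 higher and 1 lower (Cfd), and Apcs, the pentraxin serum amyloid P, read 231 to 602 in lean and 623 to 1510.4 in obese rats (1.46, SE 0.21, adjusted p = 0.00071). The calls of C1s (0.73, adjusted p = 0.0433) and C5 (0.59, adjusted p = 0.0495) were each lost in 10 of 12 fits that left out 1 array. With the class in the model 1 of the 12 genes was higher, and within the lower class 2 were. The median of 0.35 was 0.16 with the class in the model and 0.06 within the lower class.

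Promoters of 8791 of the 10524 tested genes were matched by symbol in a RefSeq table (GRCr8) and searched on both strands, from 250 bases before to 50 after the start, for short motifs. AGGNCAAAG, part of a PPAR and RXR half-site pair, was found in 21 of 669 genes called lower (3.14%) and in 10 of 744 called higher (1.34%). It was found in 1.81% of tested genes and in 2.06% of all 33469 promoters of the table. An NF-kB motif (GGANTTTCC) was found in 8 of the lower (1.20%), in 12 of the higher (1.61%), in 1.24% of tested genes and in 1.28% of all promoters. The other motifs searched follow with their shares of lower, higher and tested genes. They were HNF1 core (0.747%, 0.672% and 0.455%), HNF4 (0.747%, 0.269% and 0.296%) and AP-1 (3.14%, 4.7% and 3.33%). CRE had 1.94%, 2.28% and 3.13%, and the SREBP element 0.598%, 0.269% and 0.375%. The 250 bases before the start are shown for 3 called genes chosen, with their values known, for holding a match that makes the search visible: Icam1 (chr8:27829595-27829844, plus strand), Plin1 (chr1:143086149-143086398, minus strand) and Slc34a1 (chr17:9238984-9239233, minus strand). Each is written 5′ to 3′ on the gene's strand, with the match in capitals, all read as the reverse complement. The capitals are the NF-kB motif in Icam1 and AGGNCAAAG, not a whole half-site pair, in the others. Icam1 also holds AGGNCAAAG from base 13 after the start, outside the bases shown. A match describes the letters only.
Icam1: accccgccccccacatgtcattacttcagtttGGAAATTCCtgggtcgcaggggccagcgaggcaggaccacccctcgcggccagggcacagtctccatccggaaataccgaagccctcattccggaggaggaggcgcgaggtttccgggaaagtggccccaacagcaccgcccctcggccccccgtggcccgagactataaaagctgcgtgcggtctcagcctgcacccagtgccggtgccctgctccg
Plin1: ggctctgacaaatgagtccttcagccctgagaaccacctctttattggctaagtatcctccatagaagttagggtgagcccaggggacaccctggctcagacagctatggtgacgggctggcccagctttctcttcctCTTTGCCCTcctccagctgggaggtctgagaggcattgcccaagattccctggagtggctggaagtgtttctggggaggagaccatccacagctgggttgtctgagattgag
Slc34a1: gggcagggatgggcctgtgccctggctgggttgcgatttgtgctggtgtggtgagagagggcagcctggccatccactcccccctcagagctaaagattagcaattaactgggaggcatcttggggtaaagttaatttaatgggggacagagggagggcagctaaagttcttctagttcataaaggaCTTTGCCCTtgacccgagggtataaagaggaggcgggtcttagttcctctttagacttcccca

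Drug-handling and antioxidant genes moved in both directions. Of 25 organic ion and xenobiotic genes 10 (40%) fell and 4 (16%) rose (median -0.20). Inmt, a methyltransferase of indoleamines, and the sulfotransferase Sult1a1 rose: Sult1a1 read 1500.0, 1518 and 1321 in lean control, 1202, 2131 and 1351 in lean rosiglitazone, 2956, 2521 and 2799.6 in obese control and 2889.8, 3415 and 2494 in obese rosiglitazone rats (0.93, SE 0.12, adjusted p = 0.000312). Its change was nearly equal on control (0.92) and rosiglitazone (0.94). Of 28 glutathione and antioxidant genes 8 fell and 3 rose, and the median of -0.17 was -0.05 after quantile normalization. Gstt1, a glutathione transferase, went from 1516 to 1667 in lean to 910.3 to 1129 in obese rats (-0.65, SE 0.06, adjusted p = 2.1e-05), whereas Gstm2 went from 1222 to 1622 to 1804 to 3028 (0.71, SE 0.10, adjusted p = 0.000535). Sod1, the cytosolic superoxide dismutase, changed by -0.40 (adjusted p = 0.00198).

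Mitochondrial and protein folding genes were slightly lower. Of 48 respiratory chain and ATP synthase genes 10 (20.8%) fell and 0 rose (limma, with 24 lower and 0 higher at an unadjusted p under 0.05). Their median of -0.14 became -0.01 with quantile normalization, and -0.05 inside the lower class, where 0 of the 48 passed. Ndufb3, a subunit of complex I, changed by -0.33 (adjusted p = 0.00682). Unfolded protein response genes had 5 of 21 lower and 1 higher (median -0.15, and -0.06 after quantile normalization), among them the chaperone Calr (-0.32, adjusted p = 0.0118). With the class in the model 1 of the 21 was lower and 0 higher (limma), and within the lower class 0 were called.

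In the renin angiotensin system, 4 of 10 genes fell and 1 rose (median -0.22, and 0.00 within the lower class). Anpep, given above as a proximal tubule marker, is among the falls. So is Enpep (-0.36, adjusted p = 0.0217), but its second probe set differed by 0.36 (adjusted p = 0.122). The call of Enpep was lost in 3 of 12 fits that each left out 1 array, and with the class in the model. Ace, the converting enzyme, was lower in obese rats mainly on control, at 648, 572 and 594 in lean against 251, 226 and 221 in obese rats, and on rosiglitazone at 479, 502 and 456 against 441, 361 and 420.0. The change was -1.32 on control (adjusted p = 5.9e-05) and -0.23 on rosiglitazone (adjusted p = 0.347), with -0.77 in the mean (adjusted p = 9.31e-05). Agt, angiotensinogen, was called in the mean (-0.55, adjusted p = 0.000493) with -0.15 on control and -0.94 on rosiglitazone. The difference between the diets did not pass for either (adjusted p = 0.173 for Ace and 0.398 for Agt), and the fall was larger in one diet for both.

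Insulin, leptin and prostaglandin genes had a few called members. Of 28 genes of glucose handling and insulin signalling 3 fell and 3 rose, with a median of 0.01. That is 10.7% each way, near the shares of all genes (7.73% lower and 8.60% higher). Slc5a2, whose call was lost with the class in the model, is among the rises, and Pik3r1 had the smallest p. The adaptor Irs2 changed by -0.76 (adjusted p = 0.0232). Its call was lost without lean control 1, obese control 2, obese control 3 or obese rosiglitazone 3 (adjusted p up to 0.0613). With the class in the model Irs2 did not pass either (-0.65, adjusted p = 0.0863). Among 10 leptin signalling genes 2 rose and 2 fell, 20% each way, where 8.60% of all genes rose and 7.73% fell. Leprot, the tested gene next to Lepr, rose by 0.27 (adjusted p = 0.0353), a call lost in 8 of 12 fits that each left out 1 array. Stat3, which carries the leptin signal to the nucleus, went from 2404 to 3444 in lean to 1959 to 2315 in obese rats (-0.44, SE 0.09, adjusted p = 0.00606), but its second probe set rose by 0.33 (adjusted p = 0.0177), so the 2 probe sets disagree. The phosphatase Ptpn1, which switches off leptin and insulin receptors, rose by 0.47 (adjusted p = 0.00481). A second probe set of Ptpn1 differed by 0.16 (adjusted p = 0.528), with 0.46 on control and -0.14 on rosiglitazone. In prostaglandin and eicosanoid metabolism 3 of 17 rose and 1 fell, and Ptgs2, the inducible cyclooxygenase of macula densa and medulla, read 128, 166 and 138 in lean control, 290.1, 90.5 and 109 in lean rosiglitazone, 216, 528 and 336 in obese control and 423, 351 and 303 in obese rosiglitazone rats (1.19, SE 0.25, adjusted p = 0.00731).

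Immediate early genes differed with the spike-in class. Of 17 immediate early and heat shock genes 4 fell, Egr1, Junb, Ier2 and Zfp36, and 0 of the 17 had separate groups in both diets. Zfp36, which destabilizes cytokine mRNAs, read 2562, 3206 and 1401 in lean control and 4523, 2362 and 2252 in lean rosiglitazone rats, against 1111 to 1878 in obese rats (-0.85, adjusted p = 0.0146). With the class in the model 0 of the 17 passed, and within the lower class 2 of the 17, Ier3 (0.88, adjusted p = 0.00879) and Dusp1 (0.68, adjusted p = 0.0137), were higher in obese rats, named after their values were seen. There the median was 0.04 and the change of Zfp36 was -0.35 (adjusted p = 0.39). The calls of Egr1 and Ier2 were each lost in 8 of 12 fits that left out 1 array (all but lean control 2, lean control 3, lean rosiglitazone 3 and obese rosiglitazone 1 for Egr1, and the same for Ier2), and that of Junb in 6 (lean control 1, lean control 2, obese control 2, obese control 3, obese rosiglitazone 2 and obese rosiglitazone 3), with adjusted p of up to 0.0868. Of 16 circadian clock genes 0 passed (limma, with 4 higher at an unadjusted p under 0.05), and Dbp, whose level swings with the hour, differed by 0.34 (adjusted p = 0.393). Red blood cell genes had 2 of 3 called higher: Alas2, the aminolevulinate synthase of erythroid cells, rose by 0.75 (adjusted p = 0.0166), with 0.29 on control and 1.20 on rosiglitazone. The other was the globin Hbb (0.75, adjusted p = 0.0443), whose call held only without lean control 2, lean rosiglitazone 2 or obese rosiglitazone 3 among the 12 fits that left out 1 array (adjusted p up to 0.114). The median of the 3 genes was -0.05 on control and 1.20 on rosiglitazone. With Alas2 above 0 on control, Hbb was below 0 there, so its rise was not shared by both diets. Within the lower class 0 of the 3 were called (limma), with Alas2 at 1.00 (adjusted p = 0.0697). Of 4 adrenal cortex genes 0 were called (limma, also 0 at an unadjusted p under 0.05).

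The 5 called genes with the smallest unadjusted interaction p were Inmt, Ace, Slc22a13, Ces1d and Slc7a12, and none passed adjustment (adjusted p from 0.0546 for Inmt to 0.344). Inmt read 1936, 2389 and 1747 in lean control and 6672, 5621 and 5694 in obese control rats, and 5189, 5403 and 5309 in lean and 6747, 7573 and 7049 in obese rats on rosiglitazone. The rise was thus 1.57 on control and 0.42 on rosiglitazone, with no overlap on either. Slc7a12, an amino acid carrier, read 5948 to 8277 in lean and 1890.2 to 2436 in obese control rats, and 6435 to 7455 in lean and 3766 to 3951 in obese rats on rosiglitazone (-1.73 and -0.85). Ces1d, a carboxylesterase, rose on control (1.17, adjusted p = 0.00227) and was at -0.15 (adjusted p = 0.719) on rosiglitazone.

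The 2 body types differ at Lepr, and its neighbours in the genome were looked at as a group. Lepr itself read 83.5 to 175 in lean and 123 to 213 in obese rats (0.21, SE 0.18, adjusted p = 0.501), and this probe set does not show which allele is present. Of the 50 tested genes on each side in the gene order of the RefSeq table, 10 rose and 9 fell, 19%, where 16.3% of 10490 placed genes and 14.2% of 696 genes of the chromosome were called. The 25 nearest on each side had 16% and the 100 nearest 18% called, all near the share of all genes. Within the lower class 11% of the 50 on each side were called, against 5.46% of all genes, so the closeness to the share of all genes did not hold there. Those of smallest p were Echdc2 and Dio1. Dio1, the deiodinase that activates thyroid hormone, went from 499.8 to 695 in lean to 312 to 461 in obese rats (-0.69, SE 0.11, adjusted p = 0.00121), and Echdc2, a mitochondrial hydratase, from 3328 to 3780.4 to 1918 to 2690.2 (-0.61, SE 0.06, adjusted p = 2.12e-05). Scp2, the peroxisomal sterol carrier, changed by -0.32 (adjusted p = 0.00132), the omega-hydroxylase Cyp4a3 by -0.37 (adjusted p = 0.00227) and the nucleoporin Ndc1 by -0.35 (adjusted p = 0.00376). Plpp3, a lipid phosphatase, rose by 0.44 (adjusted p = 0.00348), through 0.19 on control and 0.69 on rosiglitazone.

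Within the lower class, where 2 lean and 5 obese arrays remain, several genes named above kept their sign and did not pass. Of transport genes these were Nr3c2 (0.48, adjusted p = 0.0583), Wnk1 (0.28, adjusted p = 0.171), Slc14a2 (0.69, adjusted p = 0.081), Kcnj1 (0.32, adjusted p = 0.34), Scnn1a (0.26, adjusted p = 0.161), Scnn1b (0.34, adjusted p = 0.0959), Avpr2 (0.36, adjusted p = 0.0932), Hsd11b2 (0.12, adjusted p = 0.382), Lrp2 (-0.19, adjusted p = 0.213), Slc22a2 (-0.50, adjusted p = 0.0537) and Slc22a6 (-0.45, adjusted p = 0.139). Of metabolic genes they were Me1 (-0.38, adjusted p = 0.0638), Me2 (1.07, adjusted p = 0.102), Elovl5 (-0.34, adjusted p = 0.0707), Ehhadh (-0.51, adjusted p = 0.104), Sod1 (-0.23, adjusted p = 0.0669), Ndufb3 (-0.25, adjusted p = 0.138) and Calr (-0.20, adjusted p = 0.0988). Of signalling genes and others they were Ace (-0.72, adjusted p = 0.115), Agt (-0.60, adjusted p = 0.0689), Ptpn1 (0.40, adjusted p = 0.204), Irs2 (-0.76, adjusted p = 0.127), Ccn2 (0.50, adjusted p = 0.209), Ces1d (0.37, adjusted p = 0.539) and Ndc1 (-0.40, adjusted p = 0.0586). With the class in the model Hsd11b2 (0.28, adjusted p = 0.116) and Ces1d (0.46, adjusted p = 0.0688) did not pass either.

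**Figure D5:**
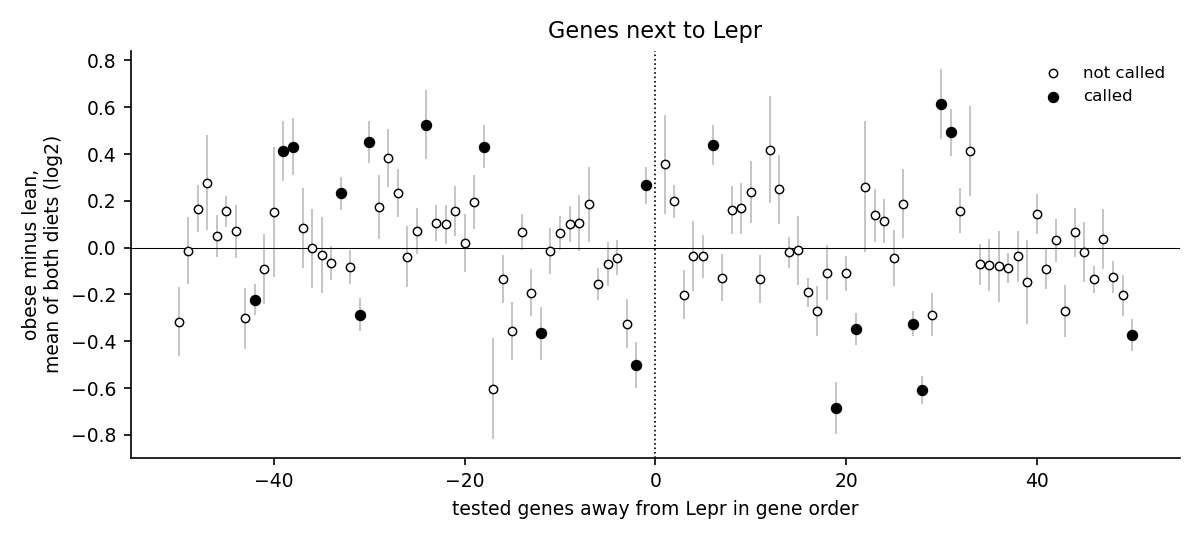
Obese minus lean difference in the mean of both diets (log2, with SE) of the 50 tested genes on each side of Lepr, by their order from Lepr (dotted line at 0). Filled circles are the 19 called genes, 10 above and 9 below 0, and they are spread over the whole range of the axis.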

How the data were processed

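Kidney RNA of 12 rats was measured on 12 arrays. The deposited values are linear signal intensities that the authors computed with MAS5, per the submitters' processing notes, and their trimmed mean was 500.12 to 500.15 on every array. Of 31099 probe sets 57 controls were left out, log2(signal + 16) was taken, and 18625 probe sets above the 40th percentile of mean log2 signal (7.32) were tested; a fold on this scale understates changes of dim genes. Of 31042 probe sets, 20826 had 1 gene symbol, 436 several and 9780 none. A model of 4 group means (8 residual degrees of freedom) was fitted with limma 3.58.1 in R 4.3.3 (eBayes with trend and robust, statmod 1.5.0), Benjamini-Hochberg adjusted over all tested probe sets, and called at an adjusted p under 0.05. The contrast was the mean of the obese minus lean differences on both diets. Of 34 lists with 706 genes, members and lists were chosen with earlier results of these data known. Genes named were the 14 largest changes each way without overlap in either diet, up to 4 called genes of each list with the smallest p, fixed lookup genes, the 5 smallest interaction p and up to 6 called neighbours of Lepr. Other genes are marked in the text or are list members that did not pass, and were not refitted with arrays left out. Replicate numbers did not pair rats (correlations -0.129 to 0.118). The number of arrays limits the precision. The fit was tested on simulated data. Alternatives covered offset, filter, scaling, model, spike-in class and each array left out.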

Additional observations from a re-analysis of the deposited data

Results flagged for a closer look

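In 98 groups of 6 arrays, 7 had 1 array far from the other 5, where chance gives about 1 in 20. Lypd2 read 53.5 in lean rosiglitazone 1 against 181 to 296 in the other lean rats. RT1-CE16 read 753 in lean control 3 against 1394 to 1630 in the others. Lepr read 83.5 in lean control 2 against 156 to 175. Pparg read 149 in obese control 2 against 220.2 to 258 in the other obese rats. In obese rosiglitazone 1, Slc5a2 read 165 against 759 to 1704, Kl, the hormone klotho, 313 against 605 to 861, and Dbp 971 against 1339 to 1598.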

How the results depend on the processing

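The 2665 calls became 2739 with body type plus diet, 2588 after quantile normalization (51.0% higher), 1907 after median centring (48.1% higher, against 53.7%) and 2000 with the spike-in class; with the replicate block, although numbers did not pair rats, there were 2678 (2496 shared). Leaving out 1 array gave 1919 to 2705. Within the lower class 889 were called (498 higher, 391 lower), within the higher class 52 (12 and 40, with 1 obese array), and after quantile normalization within the lower class 880 (497 and 383); these use fewer arrays. Calls higher were 917 after median centring. On control diet 516 were called after median centring, 548 with plain eBayes and 325 to 1003 with 1 array left out, and on rosiglitazone 493, 589 and 474 to 1033. The difference between diets gave 1 call with a filter at the 60th percentile, 1 after quantile normalization, 3 with the class, 3 with both and 0 to 4 with 1 array left out. Control calls kept their sign on rosiglitazone for 93.9% to 98.0%, and rosiglitazone calls on control for 95.1% to 98.8%, or 100% with plain eBayes. Near Lepr 11% were called within the lower class, against 5.46% of all genes (11% against 5.34% after quantile normalization), and 0% within the higher. Probe sets of 1 gene all shared a sign for 70% without a filter, and for 70.7%, 100% and 67.6% in the lower class, the higher class and the quantile-normalized lower class. Umod turned to 0.080 after quantile normalization, 0.071 with the class too and 0.10 within the lower class; C1s (-0.45), Hbb (-0.21) and Plpp3 (-0.062) turned within the higher class and C5 (-0.020) in the quantile-normalized lower class. The cause was not tested. Of 114 named calls, 87 passed with every array left out in turn, 87 with the class and 65 within the lower class. Both combinations of quantile normalization and class were chosen after seeing the data.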
